A study of Homo sapiens with 9 samples.

Results

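The Fanconi anemia core complex genes FANCA, FANCB, FANCC, FANCE, FANCF, FANCG and FANCM, the paired substrate genes FANCD2 and FANCI, and UBE2T, the gene of the ubiquitin-conjugating enzyme of the pathway, were followed in FIBP-depleted lung cancer cells. These 10 genes were taken by gene symbol from the 60966 genes of the deposited tables, and they account for 134 of the 244443 transcripts listed. The study asked what the loss of FIBP does to H1299, an established line from a human non-small cell lung carcinoma, and sequenced poly(A)-selected RNA from 9 samples. A scrambled siRNA (Scramble) went into 3 of them, Si-FIBP#1 into 3 and Si-FIBP#2 into 3, and the series describes the samples of a group as independent. All of them, controls included, went through siRNA transfection, no irradiation is named in the labels, and the line is the only one in the series. The values are FPKM, fragments per kilobase of transcript scaled to mapped fragments, summed over the transcripts of each gene, so levels of different genes are compared per length.

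The Fanconi pathway repairs DNA crosslinks that join the strands of the double helix and block replication forks. FANCM recognises the stalled fork and recruits the core complex, a ubiquitin ligase whose catalytic subunit is FANCL. With UBE2T as its E2 enzyme, the core complex places ubiquitin on FANCD2 and FANCI, which then clamp onto DNA and bring in nucleases, translesion polymerases and homologous recombination factors. The pathway acts in dividing cells and many of its genes are known to be transcribed most strongly around S phase.

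FIBP, the targeted gene, checked the labels. It read 88.38, 79.49 and 77.74 FPKM in the Scramble samples, 7.49, 7.77 and 4.30 after Si-FIBP#1 and 7.13, 5.92 and 8.21 after Si-FIBP#2, which left 7.96% and 8.66% of the Scramble mean. The summed FPKM of a sample ranged from 781058 to 818104, and 13894 to 14715 genes reached 1 FPKM. From the steps between low values the deepest sample was about 1.15 times as deep as the shallowest. The tables hold no read counts, so the spread between samples is the measure of precision used here. The keratins KRT8 and KRT18 and vimentin (VIM) were abundant in every sample, while the epithelial marker EPCAM stayed below 1 FPKM. KRT8, KRT18 and EPCAM together summed to 575 to 588 FPKM in Scramble, 265 to 302 after Si-FIBP#1 and 210 to 282 after Si-FIBP#2. All 4 leukocyte and all 3 endothelial markers were below 1 FPKM in all samples. The 4 fibroblast markers together read 0.22 to 0.54 FPKM in Scramble, 0.84 to 1.78 after Si-FIBP#1 and 1.12 to 3.11 after Si-FIBP#2, and their part in the results was not tested.

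FIBP depletion lowered most of the Fanconi genes with either siRNA. With Si-FIBP#1, 8 of the 10 fell at a Benjamini-Hochberg adjusted p (limma, log2 of FPKM + 1, 14985 genes tested) below 0.05, where 19.9% of all tested genes fell. After Si-FIBP#2 the count was also 8 of 10, against 17.7% of all tested genes. In each comparison these were FANCA, FANCB, FANCC, FANCE, FANCG, FANCD2, FANCI and UBE2T. Of these, 5 also fell over 2-fold in FPKM + 1 with each siRNA (FANCA, FANCG, FANCD2, FANCI and UBE2T). Over all tested genes, 3.11% did so after Si-FIBP#1 and 2.13% after Si-FIBP#2. FANCB stood at 44.6% and 41.3% of its Scramble mean in FPKM, and with the added 1 FPKM it did not reach 2-fold. FANCF and FANCM passed the test with neither siRNA. No member rose, where 27.8% of all tested genes rose after Si-FIBP#1 and 31.1% after Si-FIBP#2. All 10 passed the filter of 1 FPKM in at least 3 samples, FANCF only through the depleted samples. Both comparisons use the same 3 Scramble samples, so they are not independent of each other. In bulk RNA, fewer cells that express a gene and less of its RNA in each cell cannot be told apart.

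**Figure D1:**
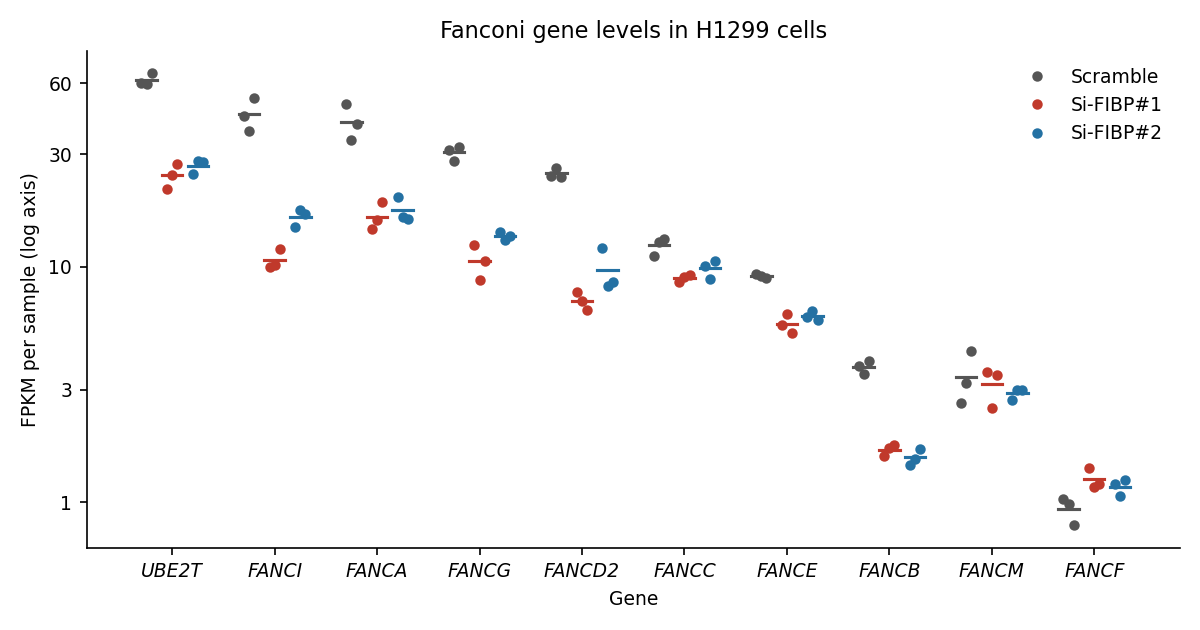
FPKM of the 10 genes in each sample on a log axis, ordered by their Scramble mean, with grey points for Scramble, red for Si-FIBP#1 and blue for Si-FIBP#2 and a bar at each group mean (n = 3). The 8 genes that fell show both siRNA groups entirely below Scramble, FANCM overlaps in all groups, and FANCF lies slightly higher with each siRNA.

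The plot of levels by sample shows the fall of 8 members in all 6 depleted samples. The summed level weighs the abundant genes most, UBE2T, FANCI and FANCA having the highest Scramble means (62.1, 44.5 and 41.2 FPKM). Summed over the 10 genes, the level was 236.2, 215.8 and 246.5 FPKM in Scramble, 86.8, 87.0 and 96.1 after Si-FIBP#1 and 107.1, 103.9 and 105.1 after Si-FIBP#2. The 3 Scramble samples were highest, the depleted groups did not overlap with Scramble or with each other, and Si-FIBP#2 held the higher sum. Median log2 fold changes over the members were -1.06 and -1.01, beside 0.07 and 0.11 over all tested genes. Rescaling the samples by their median ratio moved the latter median for Si-FIBP#2 from 0.11 to 0.0047, and under that scaling too 8 members fell with each siRNA. By position, 8 members had every Si-FIBP#1 sample below every Scramble sample and 1 had every sample above, and after Si-FIBP#2 these counts were again 8 and 1. Over all tested genes 24.3% were entirely below and 34.5% entirely above after Si-FIBP#1, and 21.2% and 36.1% after Si-FIBP#2.

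**Figure D2:**
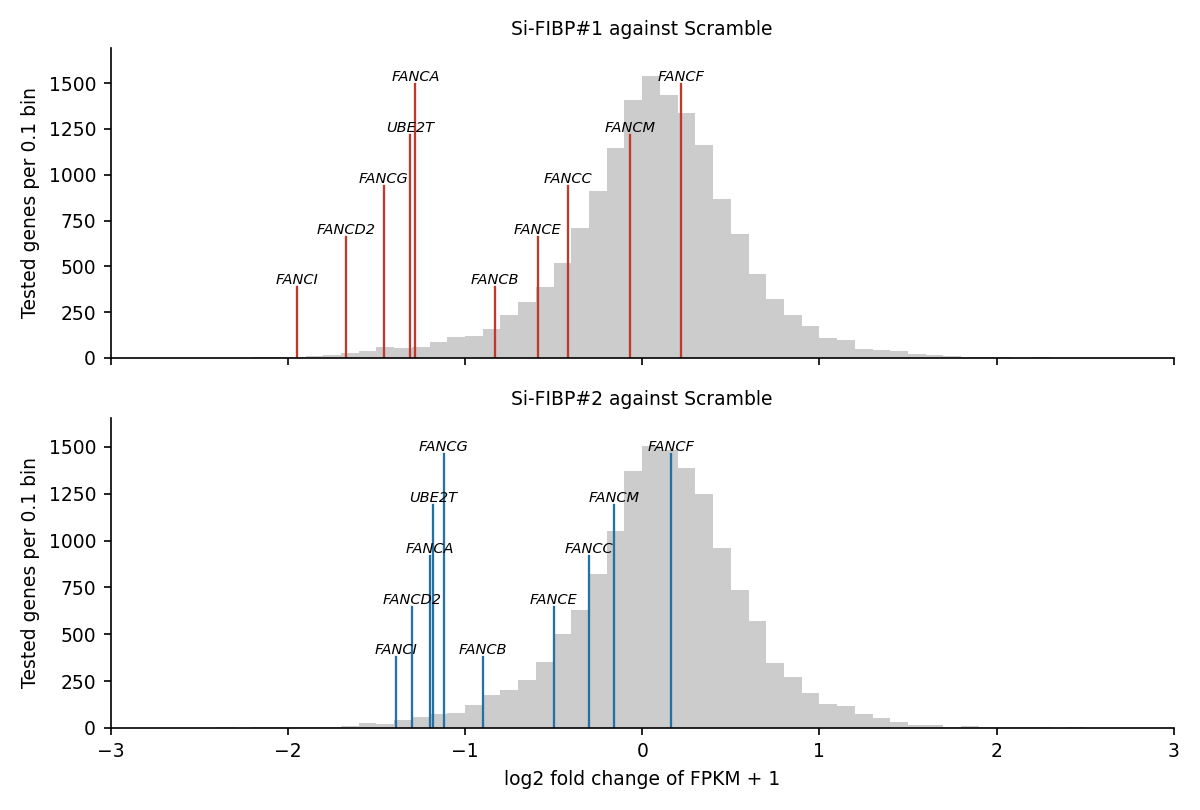
Distribution of log2 fold changes (FPKM + 1) of the 14985 tested genes in bins of 0.1 (grey), with a coloured line at the value of each Fanconi gene, for Si-FIBP#1 (top) and Si-FIBP#2 (bottom); the heights of the lines only separate the labels. FANCI, FANCD2, FANCG, UBE2T and FANCA lie in the lower tail, below -1 with each siRNA, while FANCM and FANCF lie within the bulk.

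Among the tested genes, only 0.12% had a lower log2 fold change than FANCI after Si-FIBP#1, and 0.641% after Si-FIBP#2. For FANCD2 the shares were 0.374% and 0.874%, for FANCG 0.888% and 1.64%, for UBE2T 1.46% and 1.37%, and for FANCA 1.56% and 1.28%. FANCB (4.73% and 3.08%), FANCE (8.82% and 9.71%) and FANCC (13.9% and 17.4%) lay progressively closer to the bulk on this log2(FPKM + 1) scale. FANCF stood at 64.1% and 55.1% and FANCM at 36.1% and 25.4%, inside it.

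To show the letters upstream of the genes, the 250 bases before each RefSeq start (GRCh38.p14) are given for FANCA, FANCG, FANCC, FANCF, FANCM, UBE2T and FANCD2. Bases that GENCODE v29 places in an exon of the gene itself are left out. Of the 10 genes, 9 have a RefSeq entry, and FANCI is named only. The windows of FANCB and FANCE were searched but are not printed. Words searched for on both strands of the 300-base windows (250 bases before to 50 after the start) were TTGGCGC for E2F with its common variants TTCCCGC and also TTGCCGC as well as TTCGCGC, the CCAAT box of NF-Y, the words TTTGAA and also TTCGAA of the cell cycle homology region, and TTCNNNGAA for STAT factors, the last because the study ties FIBP to STAT3. E2F words were in the windows of 6 members (FANCA, FANCC, FANCD2, FANCE, FANCF and FANCG) and in 13.0% of all 35116 windows, and CCAAT was in 4 (FANCA, FANCF, FANCM and UBE2T) and in 34.6%. Cell cycle homology words occurred in 2 members (FANCC and UBE2T) and in 16.4% of windows, and STAT words in 2 (FANCD2 and FANCM) and in 7.66%. A STAT word can contain a cell cycle homology word, so these kinds are not exclusive. Capitals below mark these words, and a word of this kind is a description of the letters, not a bound site. The E2F words of FANCD2, FANCE and FANCF and 1 of the 2 of FANCA lie across or past the start and are not in the sequences printed. E2F words were in the windows of FANCA, FANCC, FANCD2, FANCE and FANCG, which fell, and of FANCF, which passed no test. FANCB and UBE2T also fell, and their windows held no E2F word. The FANCB window held none of the words searched for. STAT words were in FANCD2, which fell, and in FANCM, which passed no test. The relation of the words to the response was not tested.

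Core complex genes fell to unequal degrees. FANCA and FANCG, which sit together in the core complex with FAAP20 and act in its assembly, had the largest falls of the core complex on the log2(FPKM + 1) scale. As a percent of the Scramble mean, FANCB (44.6% and 41.3%) was near FANCA (39.5% and 42.1%) and FANCG (34.6% and 44.3%). FANCA (ENSG00000187741, GRCh38 chr16:89737549-89816657) read 48.90, 34.41 and 40.43 FPKM in Scramble, 14.42, 15.73 and 18.78 after Si-FIBP#1 and 19.82, 16.29 and 15.94 after Si-FIBP#2. The lowest Scramble sample was above the highest depleted sample, while the siRNA groups overlapped. The log2 fold changes were -1.28 and -1.20 (SE 0.139 each), with limma adjusted p-values of 6.9e-05 and 0.00011. FANCG (ENSG00000221829, chr9:35073835-35080016) read 31.23, 28.19 and 32.23 FPKM in Scramble, 12.38, 8.77 and 10.58 after Si-FIBP#1 and 14.08, 12.95 and 13.55 after Si-FIBP#2. Its 3 groups were fully separated, Si-FIBP#1 being lowest. Its log2 fold changes were -1.46 and -1.12 (SE 0.108), with limma adjusted p-values of 6.5e-06 and 3.6e-05. Upstream of these genes, the FANCA window holds an E2F word starting 172 bases before the RefSeq start and a CCAAT at 33 bases, and the FANCG window an E2F word at 84 bases.
FANCA (chr16:89816658-89816897, - strand): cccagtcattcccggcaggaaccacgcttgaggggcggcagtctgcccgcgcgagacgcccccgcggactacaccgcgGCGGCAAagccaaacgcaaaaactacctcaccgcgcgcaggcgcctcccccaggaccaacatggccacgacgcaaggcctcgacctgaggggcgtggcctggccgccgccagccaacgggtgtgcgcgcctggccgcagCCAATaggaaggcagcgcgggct
FANCG (chr9:35080017-35080192, - strand): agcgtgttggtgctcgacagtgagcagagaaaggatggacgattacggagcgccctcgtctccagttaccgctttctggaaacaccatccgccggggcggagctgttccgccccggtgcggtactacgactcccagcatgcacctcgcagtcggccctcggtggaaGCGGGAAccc

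FANCB and FANCE had smaller changes than FANCA and FANCG on the log2(FPKM + 1) scale. FANCB (ENSG00000181544, chrX:14835961-14873069), a scaffold of the catalytic module with FANCL, read 3.80, 3.51 and 3.97 FPKM in Scramble, 1.57, 1.70 and 1.76 after Si-FIBP#1 and 1.44, 1.53 and 1.69 after Si-FIBP#2. The depleted samples stayed at 44.6% and 41.3% of the Scramble mean, with no overlap. On the log2(FPKM + 1) scale, which compresses low genes, the changes were -0.83 and -0.90 (SE 0.101, limma adjusted p = 0.00014 and 8.9e-05), and with a pseudocount of 0.1 they were -1.12 and -1.22. An assembled transcript of 11908 nt held 57.2% of the FANCB signal in Scramble, and without assembled transcripts the changes were -0.62 and -0.61. FANCE (ENSG00000112039, chr6:35452356-35467103), which contacts FANCD2 for the core complex, read 9.32, 9.15 and 8.95 FPKM in Scramble, 5.67, 6.28 and 5.25 after Si-FIBP#1 and 6.14, 6.46 and 5.93 after Si-FIBP#2. The groups were separated from Scramble by a clear gap. Its log2 fold changes were -0.59 and -0.50 (SE 0.080, limma adjusted p = 0.00026 and 0.00072).

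FANCC, the partner of FANCE in the core complex, had the smallest fall among the 8 in the main fit. FANCC (ENSG00000158169, chr9:95099054-95426796) read 11.11, 12.68 and 13.18 FPKM in Scramble, 8.58, 9.01 and 9.22 after Si-FIBP#1 and 10.07, 8.89 and 10.57 after Si-FIBP#2. All depleted samples were below all Scramble samples, by 0.54 FPKM at the nearest point. The log2 fold changes were -0.42 and -0.30 (SE 0.087), with limma adjusted p-values of 0.0032 and 0.0181. Without assembled transcripts the change after Si-FIBP#1 was -0.63, beside -0.62 for FANCB, so the rank depends on the processing. Over 18 alternatives the change after Si-FIBP#2 ranged from -0.52 to -0.18. The call after Si-FIBP#2 was lost in 4 of 18 alternatives (adjusted p from 0.00261 to 0.0739): when Scramble replicate 2, Scramble replicate 3 or Si-FIBP#2 replicate 2 was left out, and when transcripts shorter than 600 nt were left out of the sums.

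The FANCC signal was divided differently among its transcripts after depletion. ENST00000289081 (4592 nt), the leading FANCC transcript, read 6.98, 6.55 and 6.95 FPKM in Scramble, 3.17, 3.16 and 3.23 after Si-FIBP#1 and 2.77, 3.23 and 4.32 after Si-FIBP#2. It went from a mean of 55.7% of the FANCC signal to 35.7% and 34.9%, and its fall passed the transcript-level test with both siRNAs (log2 fold changes -0.90 and -0.83, limma adjusted p = 0.00211 and 0.00331). ENST00000375305 (4533 nt) was listed at 0.00, 0.61 and 0.00 FPKM in Scramble, at 0.59, 0.79 and 0.62 after Si-FIBP#1 and at 2.09, 1.82 and 1.64 after Si-FIBP#2. The Si-FIBP#2 samples were highest, and Scramble replicate 2 lies inside the range of Si-FIBP#1. An assembled transcript of 2250 nt read 0.78, 0.50 and 0.37 FPKM in Scramble, 1.22, 1.08 and 0.99 after Si-FIBP#1 and 1.72, 1.54 and 1.26 after Si-FIBP#2. Both passed the filter of 1 FPKM in at least 3 samples only through depleted samples, the groups in which they were high, so their levels are given as a description with no test. Division of reads between transcripts that share most exons is an estimate of the assembler.

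**Figure D3:**
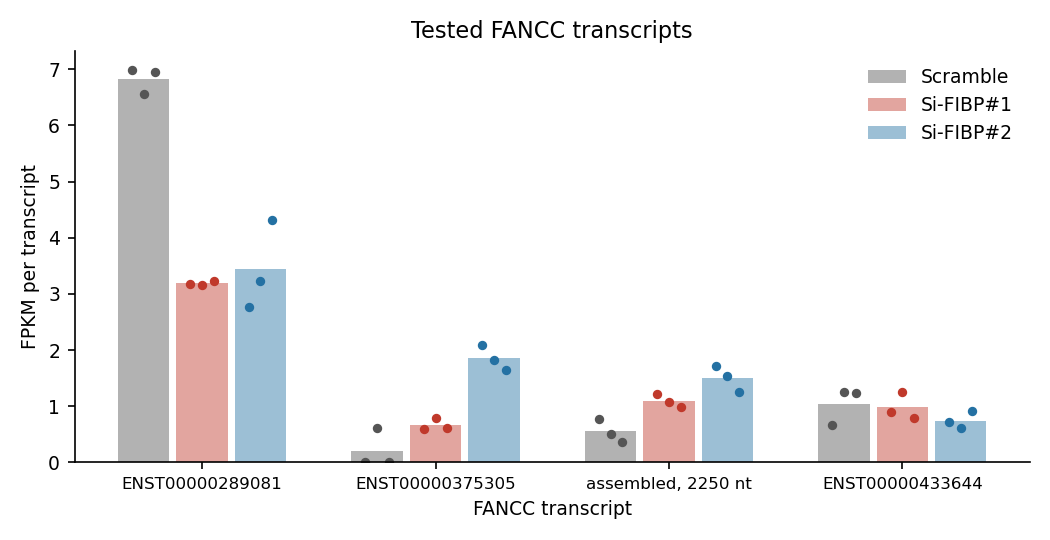
FPKM of the 4 FANCC transcripts that passed the filter, with a bar at the mean of each group and a point for each of its 3 samples. ENST00000289081 is lower in all 6 depleted samples, and ENST00000375305 is highest in the 3 Si-FIBP#2 samples.

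In GENCODE v29 these 2 FANCC transcripts start at different places on the minus strand of chromosome 9, ENST00000289081 at 95317709 and ENST00000375305 at 95317254, which is 455 bases further downstream. Each start borders one of the 2 FANCC windows in RefSeq. The window of ENST00000289081 holds a cell cycle homology word at 248 bases and E2F words at 172 and 45 bases before its start, and that of ENST00000375305 an E2F word at 115 bases.
FANCC, start of ENST00000289081 (chr9:95317710-95317959, - strand): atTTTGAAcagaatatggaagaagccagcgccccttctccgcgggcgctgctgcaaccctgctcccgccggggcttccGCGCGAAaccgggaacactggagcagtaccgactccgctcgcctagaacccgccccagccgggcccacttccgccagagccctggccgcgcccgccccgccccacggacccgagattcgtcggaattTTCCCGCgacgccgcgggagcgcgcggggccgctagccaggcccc
FANCC, start of ENST00000375305 (chr9:95317255-95317504, - strand): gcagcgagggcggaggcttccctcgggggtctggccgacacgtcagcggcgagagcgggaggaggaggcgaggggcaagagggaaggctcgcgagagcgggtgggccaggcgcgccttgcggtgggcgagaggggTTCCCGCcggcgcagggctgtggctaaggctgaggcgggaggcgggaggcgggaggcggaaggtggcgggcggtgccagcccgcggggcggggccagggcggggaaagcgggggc

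FANCF and FANCM were the members that passed the test with neither siRNA. FANCF (ENSG00000183161, chr11:22622890-22625841), an adaptor that joins the FANCC-FANCE pair to FANCA and FANCG and has a single transcript in the tables, read 1.03, 0.98 and 0.80 FPKM in Scramble, 1.40, 1.16 and 1.20 after Si-FIBP#1 and 1.20, 1.06 and 1.24 after Si-FIBP#2. Every depleted sample lay above every Scramble sample, by a margin as small as 0.03 FPKM. The gene reached 1 FPKM in 1 Scramble sample and in all 6 depleted samples, so it passed the filter only through the groups in which it was higher, and its log2 fold changes of 0.22 and 0.16 (SE 0.123) are a description. With no filter the limma adjusted p-values were 0.226 and 0.384. FANCF was also the least abundant member, and over 17 alternatives its value stayed between 0.17 and 0.39 after Si-FIBP#1 and between 0.10 and 0.29 after Si-FIBP#2. FANCM (ENSG00000187790, chr14:45135940-45200890), the translocase that anchors the core complex to DNA, read 2.63, 3.22 and 4.39 FPKM in Scramble, 3.56, 2.52 and 3.46 after Si-FIBP#1 and 2.71, 3.00 and 2.99 after Si-FIBP#2. The groups overlapped, with Scramble the most scattered. The log2 fold changes were -0.07 and -0.16 (SE 0.158, 95% intervals -0.42 to 0.28 and -0.51 to 0.19, limma adjusted p = 0.747 and 0.431). A value of -1 on the log2(FPKM + 1) scale lies outside both intervals. For a gene as low as FANCM, -1 on that scale is more than a 2-fold fall in FPKM. In the windows of these genes, FANCF holds CCAAT at 92 and 52 bases before its start, and FANCM holds CCAAT words starting at 207 and 74 bases and a STAT word at 88 bases.
FANCF (chr11:22625842-22626073, - strand): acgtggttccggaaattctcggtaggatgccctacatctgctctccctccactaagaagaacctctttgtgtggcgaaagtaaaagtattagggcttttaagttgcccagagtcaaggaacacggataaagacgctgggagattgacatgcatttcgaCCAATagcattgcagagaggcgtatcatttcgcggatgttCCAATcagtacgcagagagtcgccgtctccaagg
FANCM (chr14:45135680-45135929, + strand): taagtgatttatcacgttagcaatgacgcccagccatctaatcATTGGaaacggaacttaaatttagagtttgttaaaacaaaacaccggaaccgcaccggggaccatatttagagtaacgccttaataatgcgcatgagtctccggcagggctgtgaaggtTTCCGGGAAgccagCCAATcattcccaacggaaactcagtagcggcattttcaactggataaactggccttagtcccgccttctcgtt

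FANCD2 and FANCI, which form the clamp that the core complex ubiquitinates, fell most. FANCI (ENSG00000140525, chr15:89243949-89317261) read 43.47, 37.75 and 52.22 FPKM in Scramble, 9.96, 10.17 and 11.90 after Si-FIBP#1 and 14.82, 17.34 and 16.74 after Si-FIBP#2. The groups were fully separated, with 24.0% of the Scramble mean left after Si-FIBP#1 and 36.6% after Si-FIBP#2. On the log2 scale the changes were -1.95 and -1.39 (SE 0.118), at limma adjusted p-values of 2.1e-06 and 1.7e-05. FANCD2 (ENSG00000144554, chr3:10026414-10101930) read 24.35, 26.32 and 24.14 FPKM in Scramble, 7.81, 7.13 and 6.53 after Si-FIBP#1 and 12.06, 8.32 and 8.61 after Si-FIBP#2. Its groups did not overlap either, and Si-FIBP#2 replicate 1 was the highest depleted sample. The log2 fold changes were -1.67 and -1.30 (SE 0.125), with limma adjusted p-values of 6.8e-06 and 3.5e-05.

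The ratio of the 2 partner RNAs did not separate the groups. FANCD2 per FANCI was 0.56, 0.70 and 0.46 in Scramble, 0.78, 0.70 and 0.55 after Si-FIBP#1 and 0.81, 0.48 and 0.51 after Si-FIBP#2, with all ranges overlapping. From the highest to the lowest of the 7 core members the ratio was 47.5, 35.1 and 50.5 in Scramble, 10.3, 13.6 and 15.7 after Si-FIBP#1 and 16.5, 15.4 and 12.9 after Si-FIBP#2, FANCA being the highest and FANCF the lowest in each group by mean. Without FANCF it was 18.6, 10.7 and 10.2 in Scramble, 9.18, 9.25 and 10.7 after Si-FIBP#1 and 13.8, 10.6 and 9.43 after Si-FIBP#2. These ranges overlapped. Leaving FANCF out makes FANCM or FANCB the lowest gene, so the overlap does not show which gene carried the separation. By mean, FANCA went from 41.2 FPKM in Scramble to 16.3 and 17.3, and FANCF from 0.937 to 1.25 and 1.17.

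UBE2T (ENSG00000077152, chr1:202331657-202341980), the E2 enzyme that works with FANCL, was the most abundant member in all groups. It read 60.34, 59.61 and 66.20 FPKM in Scramble, 21.47, 24.56 and 27.38 after Si-FIBP#1 and 24.73, 28.06 and 27.82 after Si-FIBP#2. The depleted samples did not reach Scramble and the siRNA groups overlapped. In log2 terms it changed by -1.31 and -1.18 (SE 0.091), with limma adjusted p-values of 4.2e-06 and 9.4e-06. One transcript, ENST00000646651 (878 nt), held 87.9%, 87.9% and 88.4% of the UBE2T signal in Scramble, Si-FIBP#1 and Si-FIBP#2. Upstream of UBE2T lie a cell cycle homology word at 153 bases and CCAAT at 124 and 73 bases before the start, and upstream of FANCD2 a STAT word at 245 bases.
UBE2T (chr1:202341981-202342186, - strand): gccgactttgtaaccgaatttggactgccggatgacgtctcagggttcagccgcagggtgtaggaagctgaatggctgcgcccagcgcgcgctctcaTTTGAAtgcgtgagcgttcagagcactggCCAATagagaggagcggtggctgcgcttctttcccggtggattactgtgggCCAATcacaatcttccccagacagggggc
FANCD2 (chr3:10026187-10026413, + strand): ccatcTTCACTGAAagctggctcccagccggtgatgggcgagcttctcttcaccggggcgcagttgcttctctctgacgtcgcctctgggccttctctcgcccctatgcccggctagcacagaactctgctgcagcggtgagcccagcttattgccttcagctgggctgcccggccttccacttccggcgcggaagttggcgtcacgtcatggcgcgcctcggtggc

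**Figure D4:**
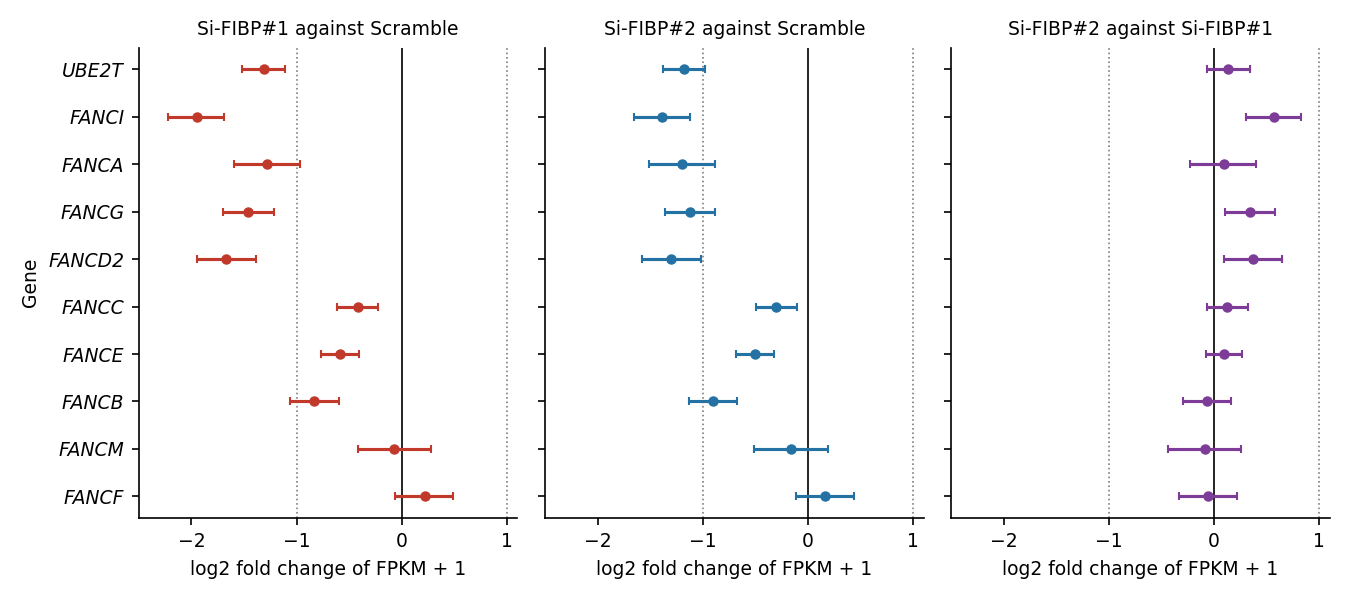
Log2 fold changes of FPKM + 1 with 95% confidence intervals (limma, n = 3 per group) for the 10 genes in the 3 comparisons, with dotted lines at a 2-fold change. In the panel of Si-FIBP#2 against Si-FIBP#1, FANCI is the gene whose difference passed the adjusted threshold, at 0.57.

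The means of the siRNA groups were also compared with each other, with the spread still estimated over all 3 groups. FANCI was the only member that passed the test, higher after Si-FIBP#2 by 0.57 on the log2 scale (SE 0.118, 95% interval 0.30 to 0.83, limma adjusted p = 0.012), where 9.58% of the tested genes were higher. It passed the threshold in 17 of 18 alternatives (adjusted p from 0.00058 to 0.059), the exception being the sums without assembled transcripts. FANCD2 (0.37, 95% interval 0.09 to 0.65, limma adjusted p = 0.0748) and FANCG (0.34, interval 0.10 to 0.58, adjusted p = 0.0633) did not pass the adjusted threshold. They passed it in 2 and 4 of 18 alternatives. For both genes, all Si-FIBP#2 samples were above all Si-FIBP#1 samples. Such full separation upward held for 3 members and for 20.4% of all genes, and 0 members and 12.5% of all genes were separated downward. No member differed over 2-fold between the siRNAs, as was the case for all but 0.561% of the tested genes. For FANCA, FANCB, FANCC, FANCE, FANCF, FANCM and UBE2T the 95% intervals included 0 and lay between -0.44 and 0.40. FIBP itself was 6.52 ± 1.9 FPKM after Si-FIBP#1 and 7.09 ± 1.1 after Si-FIBP#2 (SD, n = 3).

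The members kept their extremes of level in all groups, UBE2T the highest and FANCF the lowest. In Scramble the order of the levels ran from UBE2T (62.1 FPKM on average) through FANCI, FANCA, FANCG, FANCD2, FANCC, FANCE, FANCB and FANCM to FANCF (0.937), and the neighbours FANCI and FANCA as well as FANCB and FANCM overlapped. With Si-FIBP#1, FANCI came below FANCA and overlapped FANCG, and FANCD2 came below FANCC without overlap. With Si-FIBP#2, FANCA and FANCI overlapped, as did FANCC and FANCD2. FANCM was above FANCB in both depleted groups without overlap.

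At the level of single transcripts, 41 of the 134 passed the filter. Of these, 20 fell and 0 rose after Si-FIBP#1, and 19 fell and 2 rose after Si-FIBP#2 (limma, adjusted over 47662 transcripts), where 10.0% and 8.46% of tested transcripts fell and 10.7% and 10.6% rose. The 2 risers are FANCC transcripts that were below 1 FPKM in all Scramble samples, and 2 and 4 of those that fell were below it in all 6 depleted samples. Other transcripts that fell reached 1 FPKM in fewer than 3 depleted samples, among them the assembled FANCB transcript of 11908 nt and ENST00000566895 of FANCI. They too needed Scramble samples to pass. All such transcripts passed the filter only with the side where they were high, so the counts are a description. For FANCI the main transcript ENST00000310775 (4733 nt) fell by 1.48 and by 1.27 on the log2 scale (limma adjusted p = 6.5e-05 and 0.00015). For FANCD2 a short transcript of 449 nt, ENST00000470028, typed as a processed transcript in GENCODE v29, held 33.1% of the Scramble signal. ENST00000421731, typed as nonsense-mediated decay, held 17.6%. The full-length ENST00000383807 read 7.39, 8.58 and 2.92 FPKM in Scramble, 0.98, 1.44 and 1.88 after Si-FIBP#1 and 3.00, 2.66 and 0.00 after Si-FIBP#2. This transcript of 5102 nt did not pass the test (-1.50 and -1.48, limma adjusted p = 0.083 and 0.0918). In the same order ENST00000675286 (5096 nt), below the filter, read 0.00, 0.00 and 4.70, then 0.73, 0.00 and 0.00, then 0.00, 0.00 and 2.51. It was highest where ENST00000383807 was lowest in each group, so the test of ENST00000383807 alone does not describe both. Without transcripts under 600 nt, an alternative chosen after seeing the data, FANCD2 fell by 1.75 and 1.39 and FANCI by 1.78 and 1.25 on the log2 scale, so the falls do not rest on the short transcripts. FANCG (ENST00000378643, 15.0 FPKM in Scramble) fell through its main transcript by 1.35 and 1.23 on the log2 scale (limma adjusted p = 0.00094 and 0.00159). FANCA had no dominant transcript, its leading ENST00000305699 (1430 nt, typed as a retained intron in GENCODE v29) holding 13.0% of the Scramble signal. Its ENST00000389301 (5452 nt) held 12.9% and passed after Si-FIBP#1 only (-1.12 and -0.65, limma adjusted p = 0.0104 and 0.0856).

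Protein-coding genes on the opposite strand overlap 4 members in GENCODE v29, and genes of other types were not searched. The sources used here do not state whether counting used strand. FANCD2OS, across FANCD2, was listed at 0 in all samples, as was the pseudogene FANCD2P2. POLG shares 12064 bases with FANCI and read 20.43 to 24.43 FPKM in 8 samples and 66.32 in Si-FIBP#1 replicate 3, a sample in which FANCI read 11.90. Without that replicate, the FANCI call stood with a log2 fold change of -2.03 for Si-FIBP#1. ZNF276 (3355 bases shared with FANCA) read 13.30 to 19.43 FPKM with overlapping groups. GAS2 (333 bases shared with FANCF) averaged 0.22 FPKM in Scramble, 0.40 after Si-FIBP#1 and 0.383 after Si-FIBP#2, below the filter. As for FANCF, every depleted sample was above every Scramble sample, and the part of the overlap was not tested.

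The rest of the pathway was followed by lists ordered by role. FANCL, the catalytic subunit of the core complex, read 28.23, 23.82 and 23.81 FPKM in Scramble, 18.32, 19.06 and 21.59 after Si-FIBP#1 and 22.61, 21.37 and 21.98 after Si-FIBP#2. It fell after Si-FIBP#1 (-0.35, limma adjusted p = 0.00747), and its value after Si-FIBP#2 was -0.19 (adjusted p = 0.0897). Of 5 core-associated proteins, 3 fell after Si-FIBP#1 and 2 after Si-FIBP#2. FAAP24, the DNA-binding partner of FANCM, was the lowest (-0.87 and -1.40, limma adjusted p = 0.00102 and 5.9e-05), whereas FAAP20, the partner of FANCA, had values of -0.01 and 0.05 (adjusted p = 0.935 and 0.589).

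USP1, the protease that removes ubiquitin from FANCD2, fell (-1.01 and -0.75, limma adjusted p = 1.2e-05 and 7.9e-05), while its activator WDR48 rose with each siRNA (0.35 and 0.33, adjusted p = 0.00577 and 0.00684). Among the 8 genes of the UHRF proteins, crosslink unhooking and nucleases, 5 fell and 1 rose after Si-FIBP#1, and 4 fell and 2 rose after Si-FIBP#2. UHRF1, a crosslink sensor and maintenance factor of DNA methylation, fell by 1.88 and 1.84 on the log2 scale (limma adjusted p = 1e-06 and 1.5e-06), and ERCC1, the partner of the XPF nuclease, rose by 0.27 and 0.28 (adjusted p = 0.00518 and 0.00405). Of 8 homologous recombination genes 7 fell with each siRNA, and PALB2, which links BRCA1 and BRCA2, had values of 0.07 and -0.04 (limma adjusted p = 0.614 and 0.752).

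Of the 3 tested translesion synthesis genes, 1 fell and 1 rose with each siRNA. MAD2L2 fell (a polymerase zeta subunit, -0.26 and -0.30, limma adjusted p = 0.0122 and 0.00573) and REV3L, the catalytic subunit of polymerase zeta, rose (0.23 and 0.60, adjusted p = 0.0224 and 0.00011). In the list of ATR, ATRIP and CHEK1, the checkpoint kinase CHEK1 fell (-0.48 and -0.40, limma adjusted p = 0.00135 and 0.00396), and ATR had values of -0.05 and 0.02 (adjusted p = 0.589 and 0.821). Over all 30 tested pathway genes that are not members, 19 fell and 3 rose after Si-FIBP#1 and 16 fell and 4 rose after Si-FIBP#2, with medians of -0.41 and -0.28 beside -1.06 and -1.01 for the members. Over all tested genes 19.9% fell and 27.8% rose after Si-FIBP#1, and 17.7% fell and 31.1% rose after Si-FIBP#2.

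**Figure D5:**
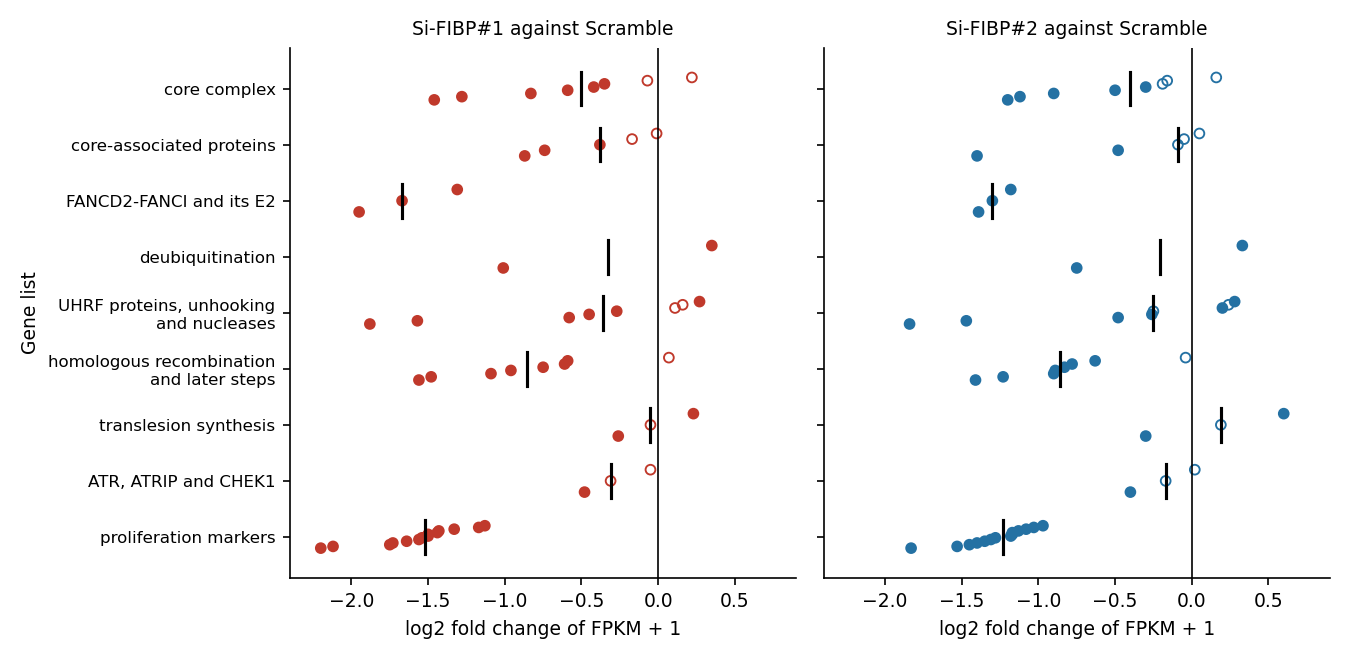
Log2 fold changes of FPKM + 1 for the tested genes of each list, Si-FIBP#1 on the left and Si-FIBP#2 on the right, with filled circles for a limma adjusted p below 0.05, open circles for the others and a black bar at the list median. FANCD2, FANCI and UBE2T and the proliferation markers lie farthest to the left by median, and USP1 and WDR48 lie on opposite sides of 0.

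Markers of proliferating cells moved with the Fanconi genes. All 14, among them the proliferation antigen MKI67, PCNA and MCM helicase genes, fell with each siRNA, 14 and 13 of them over 2-fold, with medians of -1.52 and -1.23. Over all tested genes 19.9% and 17.7% fell, 3.11% and 2.13% over 2-fold, with medians of 0.07 and 0.11. The summed level of the 14 markers was 1809 to 1854 FPKM in Scramble, 569 to 607 after Si-FIBP#1 and 683 to 782 after Si-FIBP#2. None of the 14 was below 1 FPKM in any sample. The order of the groups was the same as for the summed Fanconi genes. The part of proliferation in the fall of the Fanconi genes was not tested.

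Genes whose pattern was most like that of FANCD2 over the 9 samples, by Pearson correlation of log2(FPKM + 1), were PTX3 (0.998), XRCC2 (0.992) and RRM1 (0.992). For FANCI they were HIPK1 (0.993), FAM13B (0.993) and ATF1 (0.992). Because the samples form groups, any gene with the same group differences scores high: 521 genes exceeded 0.95 for FANCD2 and 408 for FANCI. XRCC2, a homologous recombination gene, read 7.52 ± 0.059 FPKM in Scramble, 2.05 ± 0.16 after Si-FIBP#1 and 2.63 ± 0.30 after Si-FIBP#2 (SD, n = 3), and HIPK1, a kinase, read 9.84 ± 0.66, 3.82 ± 0.22 and 4.70 ± 0.10 FPKM.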

How the data were processed

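RNA of 9 H1299 samples was sequenced as paired ends. The authors deposited FPKM values of Ensembl and assembled transcripts, 1 table a sample. HISAT2 and StringTie are named in the submitters' processing notes, and their versions, the genome build and the annotation are not given in the sources used here. The labels do not name the unit, which was taken as FPKM because value sums differ between samples while length-weighted sums hardly do. FPKM were summed per Ensembl gene ID. Genes reaching 1 FPKM in 3 or more of the 9 samples were tested on log2(FPKM + 1) with limma 3.58.1 (empirical Bayes with a mean-variance trend, 3 groups in 1 fit) in R 4.3.3, two-sided, with Benjamini-Hochberg adjustment over all tested genes. A call over 2-fold also needed an adjusted p below 0.05. Groups and replicate numbers came from the sample titles. On simulated data 91.5% (Si-FIBP#1) and 93.5% (Si-FIBP#2) of 200 genes changed by 1.5 (log2) among 14985 were recovered. In each, 1 unchanged gene was called. Recovery meant a call over 2-fold. The simulated noise was independent between genes, fewer genes changed than in the data, and changes smaller than 1.5 were not simulated. Every member was named, along with the extremes of each pathway list (1 of them is not reported here) and the 3 genes most like FANCD2 and FANCI; GAS2, POLG, ZNF276, FANCD2OS, FANCD2P2 and FANCL were named after their values were seen. The members, lists and tests were chosen with earlier results of these data known. Positions are from GENCODE v29 (GRCh38) and windows from RefSeq (GRCh38.p14), matched by gene ID or symbol. No 2 samples were identical. P-values set the difference of 2 group means against the spread of samples within groups, estimated over all 3 groups and moderated across genes. Python 3.11.15, pandas 2.3.3, numpy 2.4.6 and matplotlib 3.10.9 made the tables and figures.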

Additional observations from a re-analysis of the deposited data

Results flagged for a closer look

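FANCI was the 1 of 10 members whose level differed between the siRNAs by a direct test of the difference, where 9.58% of all tested genes were higher with Si-FIBP#2, so the count of members is near that share. The count was 0 to 2 over the alternatives. It was 0.57 higher on the log2(FPKM + 1) scale with Si-FIBP#2 than with Si-FIBP#1 (limma adjusted p = 0.012, all 3 samples of one group above all 3 of the other), at 16.3 ± 1.3 FPKM against 10.7 ± 1.1 (SD, n = 3). MKI67, one of the proliferation markers, was higher with Si-FIBP#2 as well, by 0.53 (limma adjusted p = 0.0124), and 7 of the 14 proliferation markers were, beside the same 9.58% of tested genes, with a median of 0.27 over the list and 0.04 over all genes. Their part in the difference of FANCI was not tested.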

How the results depend on the processing

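Counts of members past the threshold kept within 1.5 times their value in both comparisons with Scramble under TPM or median-ratio scaling, an added 0.1 FPKM in place of 1, dropping the filter or raising it to 5 FPKM (which left 7 members), Ensembl transcripts only, only the groups compared, the replicate block and transcripts of at least 600 nt, the last an alternative chosen after seeing the data. With each sample left out in turn they were 8 to 8 after Si-FIBP#1 and 7 to 8 after Si-FIBP#2, and 5 to 5 over 2-fold with each. With 0.1 FPKM added, the count over 2-fold after Si-FIBP#1 was 6 in place of 5, FANCB changing by -1.12. For Si-FIBP#2 against Si-FIBP#1 the count of 1 member (FANCI) became 2 with the 5 FPKM filter, TPM or the replicate block (FANCG added, limma adjusted p = 0.0462, 0.0429 and 0.0336) and with transcripts of at least 600 nt (FANCD2 added, 0.0227). It became 0 with Ensembl transcripts only, where FANCI was 0.53 higher (adjusted p = 0.059), and ranged from 1 to 2 with a sample left out: FANCG was added without Si-FIBP#1 replicate 1 (0.0253) and FANCD2 without Si-FIBP#2 replicate 2 (0.04). The count over 2-fold stayed at 0. The causes were not tested. Changes of sign occurred in values that passed no test: FANCM after Si-FIBP#1 ranged from -0.2 to 0.09 with a sample left out and became 0.09 without Scramble replicate 3 and 0.05 without Si-FIBP#1 replicate 2, and between the siRNAs FANCA ranged from -0.01 to 0.19 and became -0.01 without Si-FIBP#2 replicate 1 and FANCB 0.01 with Ensembl transcripts only.

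Replicate numbers did not strongly pair the samples: deviations of same-numbered samples correlated at -0.057 to 0.103 (9 pairs) and of others at -0.142 to 0.049 (18 pairs). The highest values were those of same-numbered pairs, so a weak pairing is not excluded. The replicate block left 8 members past the threshold with each siRNA and changed no call against Scramble. The values carry no counts, so no counting interval can be given, and low members such as FANCF, near 1 FPKM, are limited by the spread of 3 samples and by the added 1 FPKM.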
